A study of Mus musculus with 3 samples.

Results

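The nuclear genes of oxidative phosphorylation were read in single cells of the small intestine of mice given the anticancer drug busulfan and alginate oligosaccharide (AOS). They were chosen by symbol alone: every gene whose symbol starts with Nduf (apart from the Ndufaf assembly factors), Uqcr, Cox4i, Cox5, Cox6, Cox7, Cox8 or Atp5, together with Sdha, Sdhb, Sdhc, Sdhd, Cyc1 and Cycs. The rule found 84 of the 13891 genes measured: 36 of complex I, 4 of complex II, 9 of complex III, 17 of complex IV, 15 of complex V, cytochrome c (Cycs), and Atp5s and Atp5sl, which carry an Atp5 symbol but are not structural subunits of complex V. No measured value entered this rule, which was set with earlier results of these data known. The subunits encoded by the mitochondrial genome were not analysed here.

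Oxidative phosphorylation makes ATP at the inner mitochondrial membrane. Complex I and complex II pass electrons from NADH and succinate to ubiquinone, complex III passes them on to cytochrome c and complex IV to oxygen, and complex V uses the proton gradient built on the way to make ATP. In the small intestine, stem cells at the crypt base give rise to cycling progenitors, to absorptive enterocytes, which spend ATP on nutrient uptake and ion transport, and to secretory goblet and Paneth cells, which make mucus and antimicrobial peptides.

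Male ICR mice, 3 weeks old when busulfan was injected, gave 3 libraries. AOS0 mice received neither drug, B+A0 mice received 1 busulfan injection of 40 mg per kg, and B+A10 mice received the same injection and then AOS by gavage at 10 mg per kg a day, with gavage for 2 weeks in all groups. Cells of 6 mice were combined into 1 library per group, so that no library could be compared with a replicate and no test between groups was possible. The intervals below are exact 95% Poisson or binomial intervals on the UMIs (unique molecular identifiers, each counting 1 captured transcript 3′ end) and cover counting error only. Values are given in the order AOS0, B+A0, B+A10 throughout. A level is the number of UMIs of a gene per 10000 UMIs summed over the cells of a class and a library. It is a share of the RNA read, so that it also falls where other genes of the class take more of the UMIs.

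The libraries held 4106, 3195 and 5352 cells with a median of 7371, 6407 and 3505 UMIs per cell. Of the 12653 cells, 82 barcodes were found in more than 1 library. Clustering without the members gave 19 clusters, of which 10 were given 1 of 6 classes from marker genes, with 9501 cells in all. The classes were named from these markers, so their levels describe the classes and do not test the labels. The summed level of the 17 stem markers in stem-like cells was 67.3, 62.0 and 57.8. Olfm4 read 43.0, 38.6 and 34.9 there and 15.8, 17.3 and 14.1 in cycling-like cells. The 22 mature enterocyte markers summed to 880, 806 and 839 in mature enterocyte-like cells, and the 18 Paneth markers to 6591, 6194 and 6272 in Paneth-like cells. The early enterocyte-like cluster had 5 of its markers among its 10 leading genes. RNA of other cell types differed between the libraries within every class. The summed level of 10 T cell markers was 1.11 to 1.67 in the 6 classes of AOS0, 5.14 to 10.8 in B+A0 and 6.71 to 12.1 in B+A10, with no marker at 0. The 16 goblet markers summed to 29.6, 94.1 and 89.8 in mature enterocyte-like cells, and the 22 mature enterocyte markers to 24.4, 74.4 and 57.2 in Paneth-like cells. Of the 6 B and plasma cell markers measured, Ms4a1 was at 0 in every class. The others are not given here, so this value does not show that RNA of these cells was absent. The part of these differences in the values below was not tested.

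Among the 6 classes, the members took the largest share of the RNA in early enterocyte-like cells in all 3 libraries, and a smaller share in goblet- and Paneth-like cells. Some single clusters of enterocytes, described below, lay above the early class. Their summed level in stem-like cells was 654, 677 and 677 UMIs per 10000, with an interval of 651 to 658 in AOS0. In cycling-like cells it was 749, 749 and 775, in early enterocyte-like cells 916, 940 and 986, and in mature enterocyte-like cells 787, 838 and 879. Goblet-like cells had 287, 308 and 310, and Paneth-like cells 133, 168 and 153. The 6 classes kept the same order in each library, and no class overlapped its neighbour in that order. Read cell by cell, the median share of a cell's UMIs in the members was 6.49%, 6.75% and 6.75% in stem-like cells, 9.19%, 9.53% and 9.81% in early enterocyte-like cells, and 1.26%, 1.65% and 1.68% in Paneth-like cells. Of the 84 members, 67 had their highest mean level over the libraries in early enterocyte-like, 12 in mature enterocyte-like, 4 in stem-like and 1 in cycling-like cells. The lowest class was Paneth-like for 80 members. Low levels in Paneth-like cells were general, with 94.4% of all genes tested lower there than in stem-like cells in each library. These counts include members with very few UMIs. The same counts over all genes are not given, so they cannot be set against all genes.

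**Figure D1:**
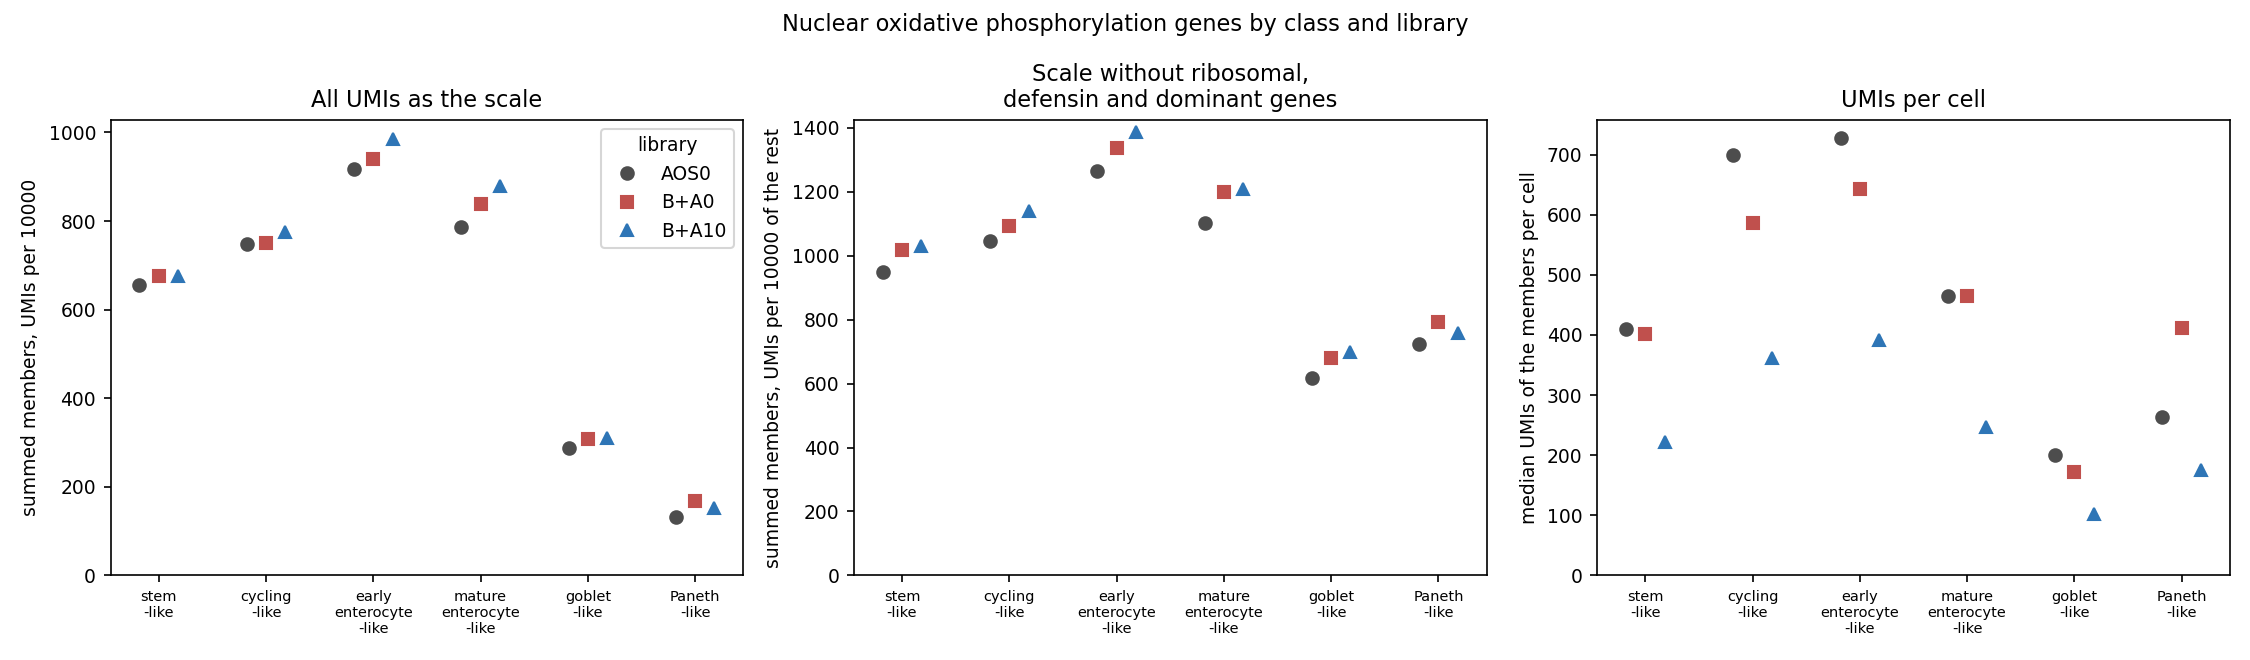
Left, summed level of the members (UMIs per 10000, vertical axis) in 6 cell classes (horizontal axis), 1 point per library; middle, the same per 10000 UMIs left after 131 ribosomal, defensin and other dominant genes were taken out of the total; right, median UMIs of the members per cell. In the left panel early enterocyte-like cells are highest at 916 to 986 and Paneth-like cells lowest at 133 to 168, while in the middle panel Paneth-like cells, at 723 to 793, lie above goblet-like cells, at 617 to 699.

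Against stem-like cells, the summed members were 1.13-fold higher in cycling-like cells (log2 ratio 0.18 ± 0.027, SD over the 3 libraries), 1.42-fold higher in early enterocyte-like cells (0.50 ± 0.037) and 1.25-fold higher in mature enterocyte-like cells (0.32 ± 0.057). From early to mature enterocyte-like cells they were lower (-0.18 ± 0.031). The members with the highest ratios in cycling-like cells were Cox7a1 (0.73), Ndufv3 (0.41), Cycs (0.40) and Atp5k (0.38), and the lowest were Cox6b2 (-0.86), Cox7a2l (-0.19), Ndufa7 (-0.12) and Atp5b (-0.08). The difference was broad and small there, with 64 of 80 members higher than in stem-like cells in each library and 5 lower, against 34.9% and 21.5% of all genes tested, and a median log2 ratio of 0.15 against 0.066. None of the 80 was at least 1.5-fold higher in each library, as 3.13% of all 6796 genes with at least 300 UMIs were, and 1 was at least 1.5-fold lower, against 1.02%. That one, Cox6b2, known from testis, rested on 326 UMIs in both classes, with levels of 0.155, 0.252 and 0.233 in stem-like and 0.102, 0.128 and 0.117 in cycling-like cells. The cycling-like class joined unlike clusters. With all libraries together, the one led by Hist1h2ao had 712 UMIs of the members per 10000 and the one led by Cdc20 had 841, against 668 in stem-like cells. The Hist1h2ao-led cluster made up 61.4%, 69.6% and 63.0% of the class.

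In early enterocyte-like cells 76 of 79 members were higher than in stem-like cells in each library and 3 were lower, against 44.9% and 38.5% of all genes tested. Their median log2 ratio was 0.48, against 0.065 for all genes tested. By the 1.5-fold limit, 17 of 79 members were higher, or 21.5%, close to the 19.3% of all 4478 genes, and none was lower, against 16.7% of all genes. In mature enterocyte-like cells the members spread apart: 47 of 79 were higher than in stem-like cells in each library and 18 were lower, against 46.1% and 42.3% of all genes, with a median of 0.21 against 0.061. At least 1.5-fold higher were 11, or 13.9%, against 30.4% of all 5765 genes, and at least 1.5-fold lower were 2, or 2.53%, against 28.3%. With the cells called doublets left out of these classes, the summed log2 ratio stayed at 0.32 and the counts were 11 and 2. When the cells left were also clustered again and named anew, the mature class held 1888 instead of 2944 cells, the ratio was 0.16 and the counts were 6 and 4. Between early and mature enterocyte-like cells, 68 of 79 members were lower in the mature cells in each library and 8 higher, against 45.7% and 35.7% of all genes, with a median of -0.27 against -0.093. Of these, 7 were at least 1.5-fold lower (8.86%, against 19.7% of all genes) and 1, Cox7a1, at least 1.5-fold higher (1.27%, against 14.6%). With the called doublets left out 7 were lower in the same classes, and 16 in the classes clustered again.

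**Figure D2:**
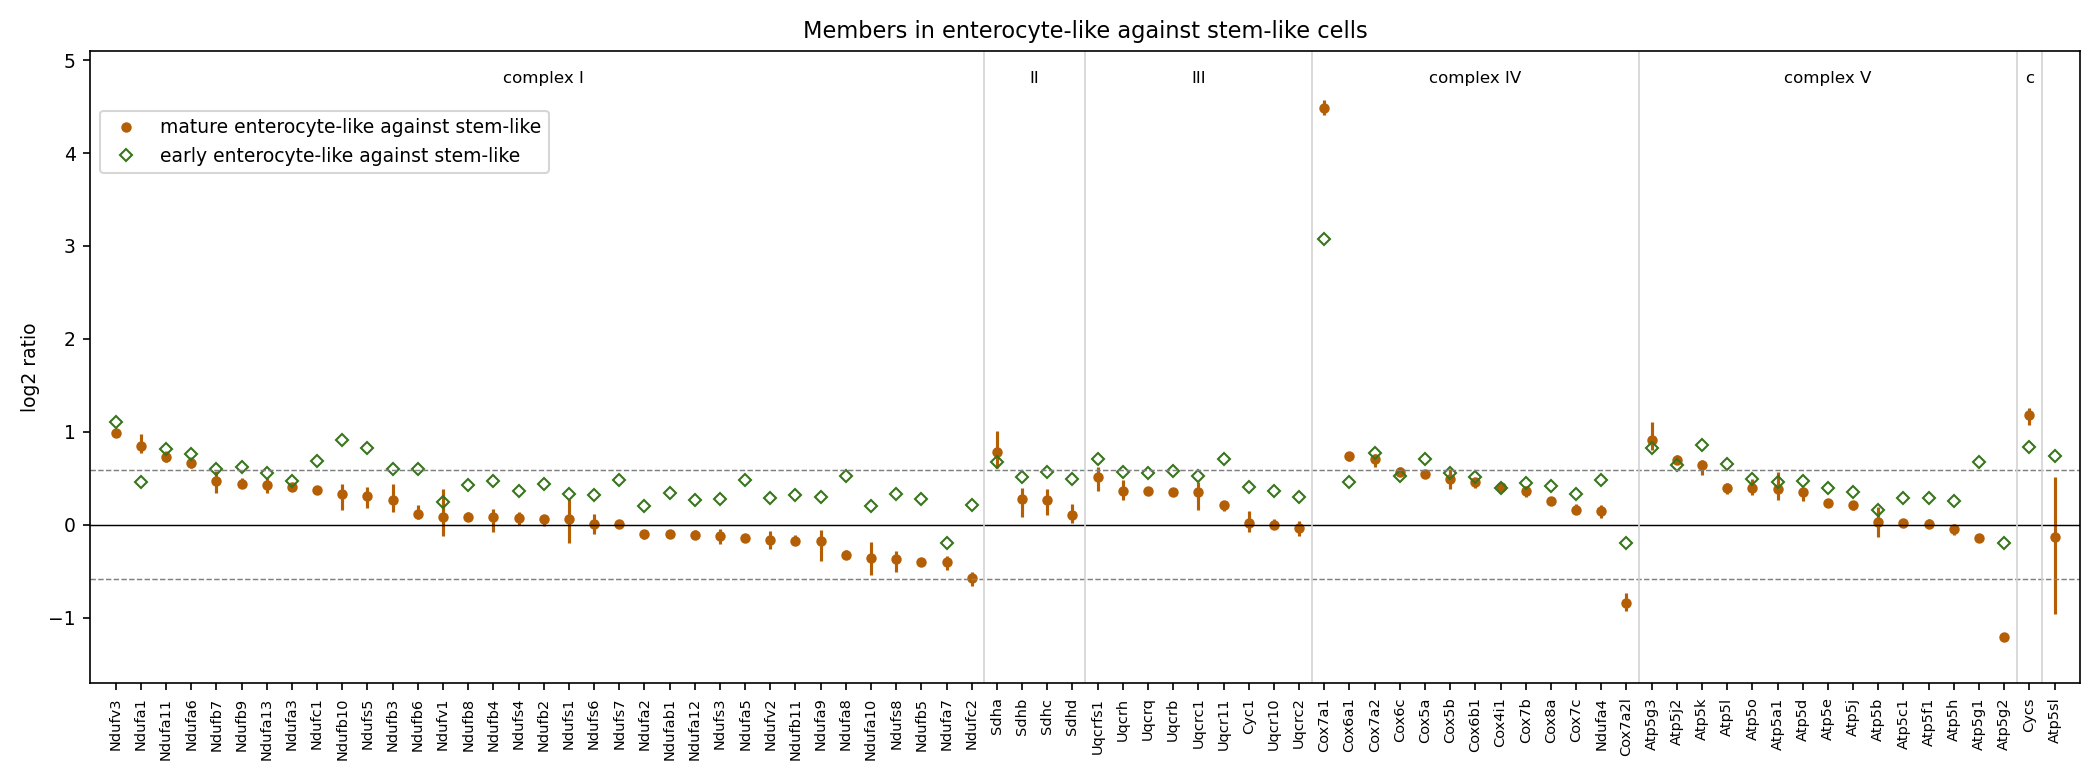
Log2 ratio of single members (horizontal axis, by complex) in mature enterocyte-like against stem-like cells (filled circles, mean of the 3 libraries, bars from the lowest to the highest library) and in early enterocyte-like against stem-like cells (open diamonds, mean). Dashed lines mark 1.5-fold; all but 3 diamonds lie above 0, while the circles run from -1.21 for Atp5g2 to 4.48 for Cox7a1.

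Complex I, which oxidises NADH, had the lowest ratio of the complexes in mature enterocyte-like cells. Its 36 members summed to 160, 165 and 164 in stem-like, 219, 227 and 234 in early and 170, 183 and 189 in mature enterocyte-like cells, mean log2 ratios to stem-like cells of 0.48 and 0.15. The median member was at 0.06 in the mature cells, with 4 at least 1.5-fold higher in each library and none lower. The members of complex I with the highest level over the classes were Ndufb9 and Ndufa13, accessory subunits of the membrane arm. Ndufb9 read 8.33, 8.95 and 8.13 in stem-like, 13.1, 12.7 and 13.2 in early and 11.1, 11.9 and 11.6 in mature enterocyte-like cells, and Ndufa13 7.34, 8.19 and 8.71, 10.99, 12.1 and 12.7, and 10.4, 11.1 and 11.1. Both thus had their highest class in the early cells, and in neither did the stem-like values overlap those of enterocyte-like cells. Ndufv3, an accessory subunit of the NADH-binding module, read 3.55, 4.13 and 4.71 in stem-like, 7.67, 8.46 and 10.5 in early and 7.24, 8.10 and 9.25 in mature enterocyte-like cells. The enterocyte-like values lay above the stem-like values without overlap (log2 ratios 1.10 ± 0.06 and 0.99 ± 0.03). Ndufa1, a small membrane subunit, went from 2.56, 2.79 and 3.17 in stem-like to 4.48, 4.78 and 6.22 in mature enterocyte-like cells. It was 1 of the 8 members that were higher in mature than in early enterocyte-like cells in each library (log2 ratio 0.39). Ndufb10, an accessory subunit of the membrane arm, had its highest class in the early cells, at 6.31, 6.22 and 6.80 against 3.61, 3.27 and 3.41 in stem-like cells. Ndufc2, another membrane subunit, was lower in the mature cells, at 3.55, 3.31 and 2.93 against 5.59, 4.68 and 4.29 in stem-like cells (-0.57). Its groups did not overlap, but it did not reach 1.5-fold in every library. Ndufa7 was lower in both enterocyte-like classes, by log2 ratios of -0.19 and -0.40. Ndufa8 and Ndufs8, of which the latter binds iron-sulphur clusters on the path of the electrons, were at least 1.5-fold lower in mature than in early enterocyte-like cells in each library, Ndufa8 with a log2 ratio of -0.86. Atp5sl, at -0.87 in that comparison, had 216 UMIs in early and 246 in mature cells.

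Complex II, succinate dehydrogenase, is shared with the citric acid cycle and is made of nuclear subunits alone. Its 4 members summed to 13.8, 11.9 and 10.7 in stem-like and 15.8, 14.9 and 14.8 in mature enterocyte-like cells (log2 ratio 0.33). Sdha, the flavoprotein that oxidises succinate, differed most within the complex, with 2.27, 2.11 and 1.78 in stem-like and 3.73, 3.23 and 3.60 in mature enterocyte-like cells, with no overlap. Sdhb, the iron-sulphur subunit, read 5.46, 4.73 and 4.33 in stem-like, 7.36, 6.79 and 6.54 in early and 5.81, 6.05 and 5.71 in mature cells. The mature values of Sdhb lay above the stem-like values without overlap (log2 ratio 0.28), and those of the early cells stood above both. Sdhd read 4.02, 3.39 and 2.96 in stem-like, 5.66, 4.29 and 4.69 in early and 4.09, 3.52 and 3.47 in mature cells, with AOS0 highest in each class.

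Complex III, which takes electrons from ubiquinol, was higher in early enterocyte-like cells by a log2 ratio of 0.54 and in mature cells by 0.25. None of its 9 members reached 1.5-fold in either direction in the mature cells. Uqcrq, a small subunit next to cytochrome b, read 17.2, 21.8 and 20.8 in stem-like, 25.1, 31.2 and 31.9 in early and 21.4, 27.9 and 27.6 in mature enterocyte-like cells. Values from B+A0 and B+A10 stood above AOS0 in each of these classes, so that stem-like and mature values overlapped across libraries although the ratio was above 1 within each. Uqcr10, another small subunit, read 16.9, 19.6 and 22.0 in stem-like, 21.6, 24.9 and 28.9 in early and 16.4, 19.6 and 22.9 in mature cells, so that its mature values lay beside the stem-like values in each library. Cyc1, the cytochrome c1 subunit that hands electrons to cytochrome c, was among the members with the lowest ratios in goblet-like cells, as described below.

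Cytochrome c stood apart from the complexes. Cycs (chr6:50562563-50566569 on GRCm38.p6), the soluble carrier between complex III and complex IV that also starts caspase activation when it leaves the mitochondrion, read 11.6, 11.2 and 11.2 in stem-like and 16.0, 14.98 and 13.9 in cycling-like cells. In early enterocyte-like cells it read 21.3, 20.1 and 19.5, and in mature enterocyte-like cells 27.7, 25.8 and 23.8. Each class lay above the one before it in all 3 libraries, with log2 ratios to stem-like cells of 0.40, 0.84 and 1.18. The library order was the same in the last 3 of these classes, with AOS0 highest and B+A10 lowest.

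Complex IV, cytochrome c oxidase, kept more of its level in mature enterocyte-like cells than the other complexes. Its log2 ratio to stem-like cells was 0.50 in the early and 0.46 in the mature cells, and its mean share of all member UMIs went from 30.6% in stem-like to 33.7% in mature enterocyte-like cells, while that of complex I went from 24.4% to 21.7%. Cox4i1, the ubiquitous form of a subunit that binds adenine nucleotides, read 29.2, 30.5 and 29.9 in stem-like and 38.2, 39.8 and 40.6 in mature enterocyte-like cells. Cox6a1, the form of subunit VIa found outside muscle, read 13.2, 14.4 and 14.01 in stem-like and 22.7, 23.2 and 23.6 in mature enterocyte-like cells. Both showed no overlap between these classes, and Cox6a1 was also higher in mature than in early cells (log2 ratio 0.28). Cox6c, a small subunit of the outer rim, read 18.5, 21.8 and 24.6 in stem-like and 27.0, 31.5 and 37.8 in mature enterocyte-like cells, highest in B+A10 in both. Some members were close to absent. Cox4i2, the lung form of subunit IV, had 3 UMIs, Ndufa4l2, known from hypoxia, 8 and Cox6a2, the muscle form of subunit VIa, 73 in all 12653 cells, too few for a comparison. Atp5s was under 300 UMIs in every comparison of classes, Cox6b2 in all but that of cycling-like cells, and Atp5sl in those of goblet- and Paneth-like cells, so that 78 to 80 members passed this filter. Cox8b, Cox8c and Cox7b2 were not analysed here.

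**Figure D3:**
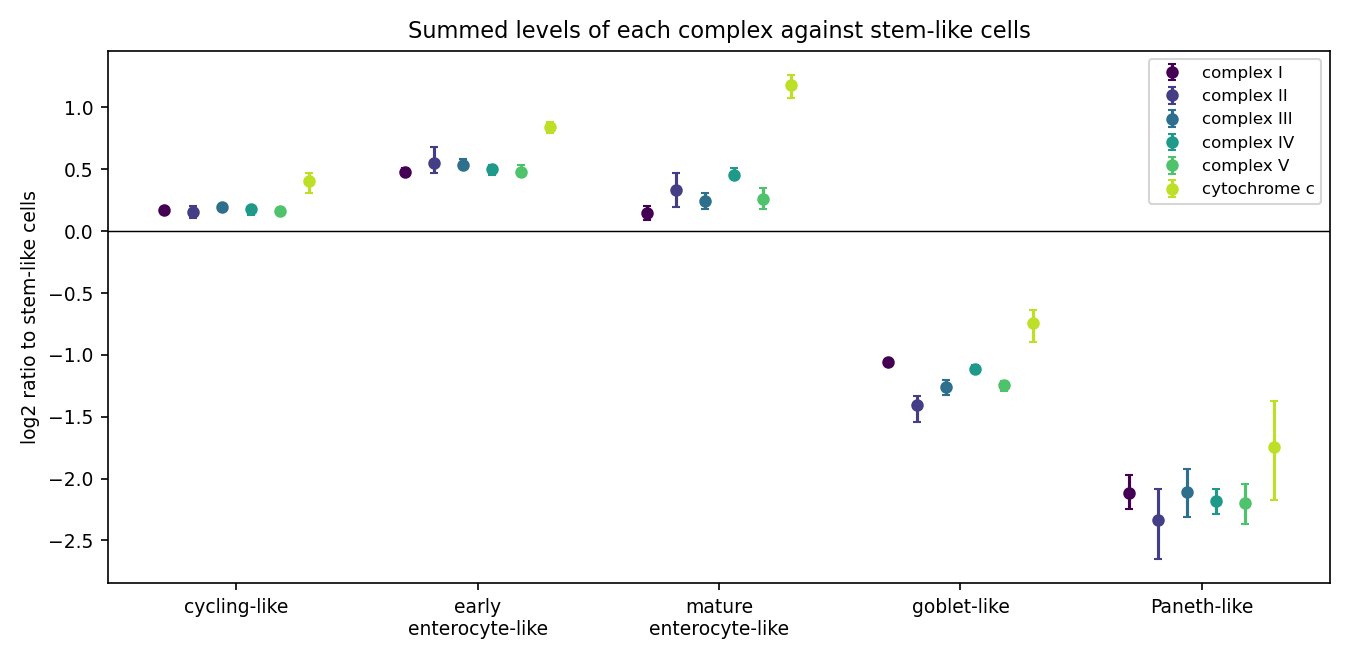
Mean log2 ratio of the summed level of complexes I to V and of cytochrome c (colours) to stem-like cells (vertical axis) in 5 classes (horizontal axis); bars run from the lowest to the highest of the 3 libraries. The complexes lie between 0.48 and 0.55 in early enterocyte-like cells and between 0.15 (complex I) and 0.46 (complex IV) in mature enterocyte-like cells, and cytochrome c lies above all 5 complexes in each class.

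Complex V, ATP synthase, had log2 ratios of 0.48 in early and 0.26 in mature enterocyte-like cells. Atp5b, the catalytic beta subunit, differed little (0.16 in the early cells, -0.08 in cycling-like cells). Atp5k, subunit e of the membrane part where ATP synthase dimers form, was at 0.86 ± 0.03 in the early cells, and Atp5l, subunit g of the same part, read 18.3, 19.1 and 20.1 in stem-like, 27.9, 30.3 and 32.7 in early and 23.1, 25.4 and 27.5 in mature enterocyte-like cells. The genes that moved apart most were the 3 that encode subunit c, the ring that turns as protons pass. Cox7a in complex IV and Atp5g in complex V were therefore read as groups of alternative genes.

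Promoter sequences are shown for Cox7a1 and the 3 Atp5g genes as examples from these groups, and for Sdhd, the other member with a match to the ERR motif. Each is the window from 250 bases before to 50 bases after the annotated start in RefSeq (GRCm38.p6), read 5′ to 3′ on the gene's own strand, and capitals mark a motif match on either strand. Cox7a1 is at chr7:30183921-30184220 on the plus strand, and the others are on the minus strand, Atp5g1 at chr11:96075582-96075881, Atp5g2 at chr15:102670998-102671297, Atp5g3 at chr2:73911277-73911576 and Sdhd at chr9:50603800-50604099.
Cox7a1: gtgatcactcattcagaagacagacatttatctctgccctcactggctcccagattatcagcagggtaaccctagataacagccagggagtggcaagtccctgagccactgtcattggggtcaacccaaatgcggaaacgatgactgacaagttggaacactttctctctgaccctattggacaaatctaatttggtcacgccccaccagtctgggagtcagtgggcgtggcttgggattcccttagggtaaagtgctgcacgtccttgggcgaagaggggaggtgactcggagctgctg
Atp5g1: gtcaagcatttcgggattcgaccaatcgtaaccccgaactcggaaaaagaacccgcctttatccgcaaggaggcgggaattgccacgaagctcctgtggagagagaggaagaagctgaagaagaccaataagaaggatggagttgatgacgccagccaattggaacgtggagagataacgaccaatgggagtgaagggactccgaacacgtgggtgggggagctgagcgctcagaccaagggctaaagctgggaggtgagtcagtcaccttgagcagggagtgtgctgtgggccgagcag
Atp5g2: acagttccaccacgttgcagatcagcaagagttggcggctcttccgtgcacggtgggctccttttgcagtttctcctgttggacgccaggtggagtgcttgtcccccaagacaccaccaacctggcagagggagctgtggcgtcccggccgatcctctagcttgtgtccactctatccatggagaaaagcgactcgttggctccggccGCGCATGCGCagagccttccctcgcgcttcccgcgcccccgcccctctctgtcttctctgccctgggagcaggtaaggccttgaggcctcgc
Atp5g3: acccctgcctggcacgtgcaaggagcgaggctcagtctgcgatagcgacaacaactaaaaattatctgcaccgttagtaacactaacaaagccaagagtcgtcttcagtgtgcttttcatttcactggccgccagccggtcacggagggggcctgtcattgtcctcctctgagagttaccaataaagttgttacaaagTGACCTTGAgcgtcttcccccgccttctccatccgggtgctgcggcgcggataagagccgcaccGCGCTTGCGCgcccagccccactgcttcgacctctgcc
Sdhd: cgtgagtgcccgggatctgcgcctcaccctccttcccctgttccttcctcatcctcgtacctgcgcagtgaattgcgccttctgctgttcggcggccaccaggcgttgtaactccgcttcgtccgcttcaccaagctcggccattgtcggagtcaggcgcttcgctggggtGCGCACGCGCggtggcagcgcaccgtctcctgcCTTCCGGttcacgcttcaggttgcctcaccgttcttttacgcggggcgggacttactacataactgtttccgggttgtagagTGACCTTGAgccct
The motifs searched, on both strands, were GCGCA then any base then GCGC for NRF1, CCGGAAG for GABPA, AAGATGGCG for YY1 and TCAAGGTCA for the oestrogen-related receptors (ERR). Atp5g2 held 1 match, to NRF1 at position -42 from the start, Atp5g3 matches to ERR at -52 and to NRF1 at 12, and Sdhd matches to NRF1 at -79, GABPA at -46 and ERR at 36, and no matches in these windows shared a base. The windows of Cox7a1 and Atp5g1 held none of these motifs. Over the 75 windows of the 69 members that had one, NRF1 matched 24.0% (4.60% of all 32851 windows), GABPA 21.3% (8.86%), YY1 9 of the 75 windows (1.40%) and ERR 2.67% (0.423%). Members with and without a match overlapped in their log2 ratios of mature enterocyte-like to stem-like cells, with medians of 0.31 for 17 members with an NRF1 match and 0.19 for 50 without, and of 0.24 for 16 with a GABPA match and 0.086 for 51 without. The medians were 0.045 for 8 members with a YY1 match and 0.23 for 59 without, and 0.51 for the 2 with an ERR match and 0.21 for 65 without. A match is a description of the sequence and says nothing of binding in these cells.

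Cox7a1 (chr7:30184171-30186030), the form of subunit VIIa known from heart and skeletal muscle, had the highest ratio of any member in each comparison of a class with stem-like cells. Its level was 0.25, 0.37 and 0.47 in stem-like and 0.50, 0.58 and 0.70 in cycling-like cells. In early enterocyte-like cells it was 2.53, 2.81 and 3.72, and in mature enterocyte-like cells 5.92, 7.90 and 10.5. The mature values stood above all others, with a mean log2 ratio to stem-like cells of 4.48 ± 0.08, or 22.4-fold. The stem-like level rested on 181 UMIs, and the part of RNA from mature enterocytes in it was not tested. Goblet-like cells had 0.52, 0.68 and 0.80, and Paneth-like cells 0.22, 0.48 and 0.57. Cox7a2 (chr9:79755241-79771422), the ubiquitous form, stayed the main gene of the group, with 74.9%, 79.4% and 80.8% of the group's UMIs in stem-like and 73.4%, 71.8% and 68.8% in mature enterocyte-like cells. Cox7a1 went from 1.38%, 1.79% and 2.33% of the group to 18.9%, 22.4% and 26.1%, with an interval of 18.4% to 19.5% in AOS0. Cox7a2l (chr17:83501917-83514333), which joins complex III and complex IV into supercomplexes, went from 23.7%, 18.8% and 16.9% to 7.65%, 5.78% and 5.12%. Its own level was lower too, 4.31, 3.89 and 3.43 in stem-like against 2.39, 2.04 and 2.07 in mature enterocyte-like cells (log2 ratio -0.84), and the groups did not overlap.

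**Figure D4:**
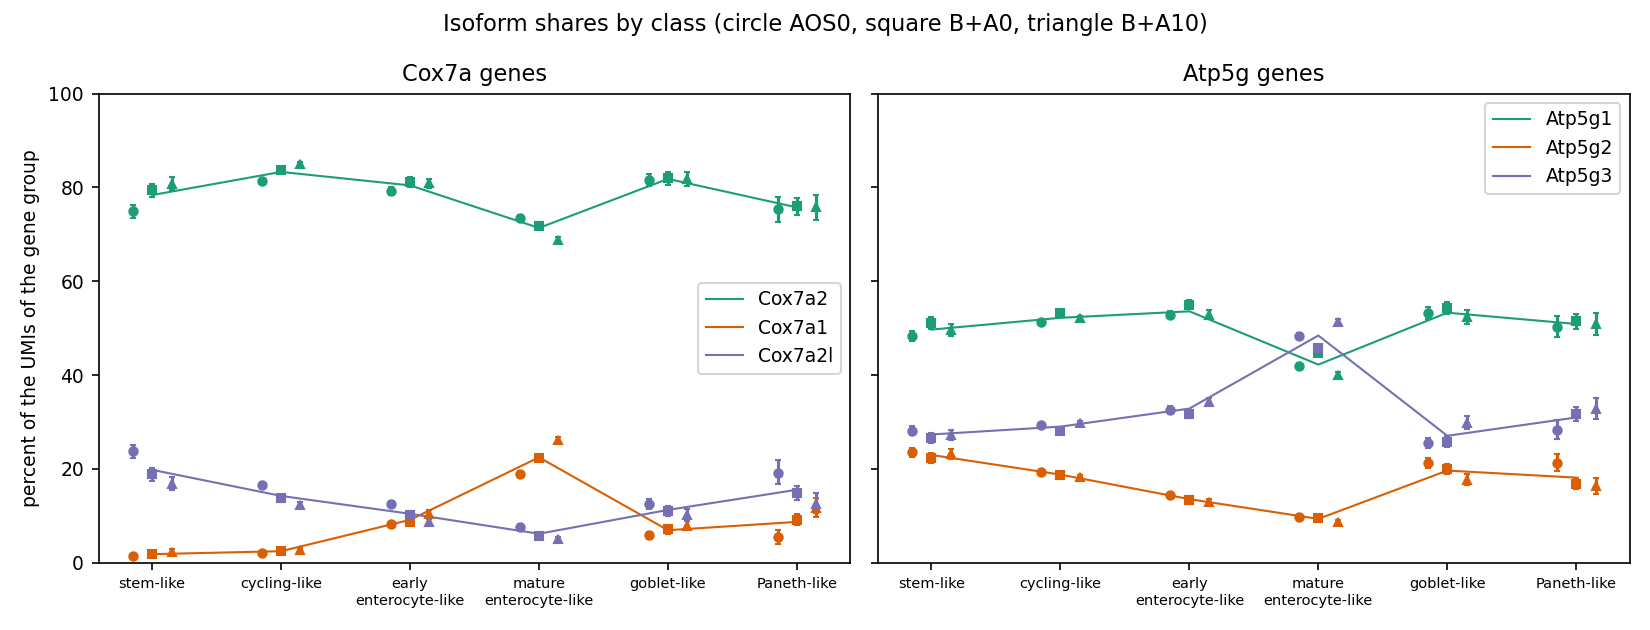
Percent of the UMIs of a gene group (vertical axis) that came from each gene, for Cox7a2, Cox7a1 and Cox7a2l (left) and Atp5g1, Atp5g2 and Atp5g3 (right), by class; symbols are the libraries, bars exact 95% binomial intervals, and lines join the means. Cox7a1 is highest in mature enterocyte-like cells, at 18.9% to 26.1%, and Atp5g3 overtakes Atp5g1 in that class.

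Atp5g1, Atp5g2 and Atp5g3 encode the same mature subunit c behind different import sequences. Atp5g1 (chr11:96072793-96075694) read 18.6, 20.7 and 20.5 in stem-like, 29.9, 32.8 and 32.9 in early and 16.4, 19.0 and 18.9 in mature enterocyte-like cells. It was thus highest in the early cells, and its log2 ratio of mature to early cells was -0.82. Atp5g2 (chr15:102662868-102671047) read 9.06, 9.04 and 9.55 in stem-like, 8.16, 7.93 and 8.04 in early and 3.85, 4.03 and 4.11 in mature enterocyte-like cells. Its ratio of mature to stem-like cells was the lowest of the members with at least 300 UMIs (-1.21 ± 0.04). Atp5g3 (chr2:73908447-73912464) read 10.8, 10.8 and 11.3 in stem-like, 18.4, 18.9 and 21.3 in early and 18.9, 19.3 and 24.2 in mature enterocyte-like cells (0.92 ± 0.16). Atp5g3 took 28.1%, 26.6% and 27.3% of the group's UMIs in stem-like and 48.3%, 45.7% and 51.3% in mature enterocyte-like cells, while Atp5g1 went from 48.4%, 51.1% and 49.6% to 41.8%, 44.8% and 40.02%, and Atp5g2 from 23.5%, 22.3% and 23.1% to 9.82%, 9.53% and 8.71%. Atp5g3 therefore stood above Atp5g1 in the mature cells of each library, in B+A0 by less than the counting intervals, and below it in the other 5 classes.

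The mature enterocyte-like class joined 3 clusters, which differed in the members. In the cluster led by Fabp1, a fatty acid binding protein, the summed level was 980, 1007 and 1024. It was 683, 814 and 809 in that led by Slc5a12, a lactate and monocarboxylate transporter, and 700, 716 and 758 in that led by Fabp6, which binds bile acids in the ileum. The Fabp1-led cluster was above the others in every library, and above the early enterocyte-like class as well. Cox7a1 read 7.93, 10.1 and 13.2 in the Fabp1-led, 7.48, 11.1 and 12.5 in the Slc5a12-led and 3.44, 4.18 and 5.26 in the Fabp6-led cluster, each above its stem-like level. Atp5g1 split the Fabp1-led cluster, at 22.3, 24.3 and 23.5, from the Slc5a12-led cluster, at 8.45, 13.7 and 11.9. The 3 clusters made up 35.0%, 33.5% and 31.5% of the class in AOS0, and 41.1%, 34.0% and 24.8% in B+A10. Of the clusters without a class, one led by Ms4a18 had 970, 973 and 1010 UMIs of the members per 10000, and one led by S100g, a calcium-binding protein of absorptive cells, 945, 996 and 1015. Both lay above the early enterocyte-like class in each library. The lower level of mature than of early enterocyte-like cells thus holds for the classes as named, and not for every enterocyte cluster.

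In secretory cells the members took less of the RNA. Goblet-like cells had 2.22-fold lower summed levels than stem-like cells (log2 ratio -1.15 ± 0.034), with 76 of 78 members lower in each library, against 66.8% of all genes, and Paneth-like cells 4.44-fold lower (-2.15 ± 0.15), with 77 of 78 lower, against 94.4%. At least 1.5-fold lower in goblet-like cells were 70 of 78 members, or 89.7%, against 48.4% of all 4412 genes, and 1, Cox7a1, was higher, against 13.1% of all genes. The median log2 ratio was -1.25 for the members and -0.73 for all genes. The goblet-like class joined unlike clusters. With all libraries together, the one led by Agr2 had 370 UMIs of the members per 10000 and the one led by Ido1 had 188. The Agr2-led cluster made up 62.5%, 55.1% and 55.5% of the class. In Paneth-like cells 77 of 78 members, or 98.7%, were at least 1.5-fold lower, near the 89.5% of all 3208 genes tested, and none was higher, against 2.34%. The medians there were -2.17 for the members and -2.11 for all genes.

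These values depended on the total. The 131 genes of ribosomal proteins, defensins and other proteins that took over 1% of the UMIs of a class held 30.9% to 34.2% of the UMIs in stem-like, 53.5% to 55.7% in goblet-like and 78.8% to 81.7% in Paneth-like cells. Without them in the total every log2 ratio to stem-like cells shifted by 0.57 in goblet-like and by 1.75 in Paneth-like cells, and by less than 0.1 in the others. Small ratios changed sign even so. Members with a mean log2 ratio above 0 went from 58 to 45 of 79 in mature enterocyte-like and from 70 to 67 of 80 in cycling-like cells. In early enterocyte-like cells they stayed at 76 of 79. On that scale the summed members read 948, 1018 and 1029 in stem-like, 617, 680 and 699 in goblet-like and 723, 793 and 759 in Paneth-like cells. The summed members of both classes were still lower than in stem-like cells, with log2 ratios of -0.59 and -0.40. The members at least 1.5-fold lower in each library were 39 in goblet-like and 8 in Paneth-like cells. The shares of all genes above are on the scale of all UMIs and those on this scale are not given, so these counts cannot be set against all genes. Counted per cell, Paneth-like cells held a median of 263, 411 and 175 UMIs of the members, against 410, 401.5 and 222 in stem-like cells, out of 25145, 24082 and 10451 UMIs in all. Goblet-like cells held 200, 172 and 102.

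Among the members, the differences in secretory cells were uneven. Cyc1 went from 7.002, 6.48 and 5.76 in stem-like to 1.51, 1.79 and 1.58 in goblet-like cells (log2 ratio -1.98), and Uqcrc2, a core protein of complex III, was at -1.78 in goblet-like and -2.72 in Paneth-like cells. Ndufa10, an accessory subunit of complex I, went from 1.87, 1.62 and 1.36 in stem-like to 0.27, 0.20 and 0.17 in Paneth-like cells (-2.95), the lowest ratio of the members with at least 300 UMIs. In goblet-like cells Ndufa10 was at -1.78 and Cox7a2l at -1.85, and in Paneth-like cells Cyc1 was at -2.76 and Sdhd at -2.71. At the other end, Ndufv3 stood at -0.03 in goblet-like and -1.55 in Paneth-like cells, Ndufa1 at -0.33 and -1.21, and Atp5e, the epsilon subunit of complex V, at -0.48 and -1.61. On the scale without ribosomal, defensin and dominant genes, 6 members turned to above 0 in each of these classes. In Paneth-like cells they were Ndufa1 (0.55), Ndufv3 (0.20), Atp5e (0.15), Ndufa11, Ndufa13 and Cycs, and in goblet-like cells Ndufv3, Ndufa1, Atp5e, Ndufa3, Ndufa6 and Ndufa13. Cox7a1 was higher in goblet-like cells (0.89) and at 0.15 ± 0.30 in Paneth-like cells. Its levels in Paneth-like cells stood beside RNA of mature enterocytes. The 22 markers of these summed to 24.4, 74.4 and 57.2 there, with AOS0 lowest for both Cox7a1 and the markers. Such RNA was also read in goblet-like cells, with Apoa4 at 1.39, 3.39 and 4.02 and Fabp1 at 3.84, 6.82 and 7.72. In stem-like cells Apoa4 read 1.44, 2.84 and 3.57 and Fabp1 4.17, 5.98 and 7.32. The part of this RNA in the values of Cox7a1 was not tested. By complex, complex II was lowest in goblet-like cells (-1.40) and complex I highest (-1.06), with cytochrome c at -0.74.

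Other genes of mitochondrial and energy metabolism were counted from lists and are read against all genes tested in the same comparison, of which 30.4% were at least 1.5-fold higher and 28.3% lower in mature enterocyte-like than in stem-like cells. From stem-like to mature enterocyte-like cells, 9 of 15 genes of glycolysis were at least 1.5-fold higher and 1 lower in each library, and their summed level was higher by a log2 ratio of 1.09, in early cells by 0.98. Hkdc1, which carries a hexokinase domain, stood at 4.14 and Slc16a3, a lactate exporter, at 3.66, while Hk2, a hexokinase, stood at -0.41 and Slc16a1, another monocarboxylate transporter, at -0.76. Of 17 genes of the citric acid cycle, 6 were higher and 4 lower, near the shares of all genes (sum 0.70), with Ogdh, of the oxoglutarate dehydrogenase complex, at 2.56 and Dlst, of the same complex, at 1.75, Fh1, fumarase, at -1.23 and Idh2, the mitochondrial NADP-dependent isocitrate dehydrogenase, at -1.997. Of 16 genes that carry or buffer ATP and phosphate, 4 were higher, again near all genes, and none lower (0.67), with Ckmt1, a mitochondrial creatine kinase, at 2.95 and its cytosolic counterpart Ckb at 1.31, Vdac1, a pore of the outer membrane, at -0.45 and Apool at -0.54. Atpif1, which inhibits ATP synthase from running backwards, ranged over the libraries from 15.3 to 17.8 in stem-like and from 22.7 to 29.5 in mature enterocyte-like cells (0.64). For 12 genes of mitochondrial redox control and uncoupling the counts were 3 and 3, near all genes, and the sum (0.55) and the median (-0.18) differed in sign, with the peroxiredoxin Prdx5 at 2.88, catalase (Cat) at 2.17, Prdx3 at -1.19 and mitochondrial thioredoxin, Txn2, at -1.41.

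Calls in the lower direction were more frequent among assembly factors and mitochondrial ribosomal genes. Of 37 assembly factors, 4 were higher and 16 lower in mature enterocyte-like cells (-0.33), with Sco1, which delivers copper to complex IV, at 1.31, Cox16 at 0.95, Sdhaf1, which assembles complex II, at -1.90 and Cox18 at -2.30. Of 74 mitochondrial ribosomal protein genes none was higher and 61 were lower (-1.02), and of 85 cytosolic ribosomal protein genes 84 were lower (-2.35). In early enterocyte-like cells the mitochondrial ribosomal genes were near the stem-like level (-0.06, with 1 of 75 higher and none lower), and the assembly factors summed to 0.21, with 2 of 31 higher and none lower. Of all genes tested in that comparison, 19.3% were higher and 16.7% lower. The summed oxidative phosphorylation genes were at 0.50 in the early and 0.32 in the mature cells, against -0.06 and -1.02 for the mitochondrial ribosomal genes. Of 11 regulators of mitochondrial biogenesis, 4 were higher and 4 lower, near the 30.4% and 28.3% of all genes. Ppargc1a, a coactivator of mitochondrial genes, ranged over the libraries from 0.027 to 0.088 in stem-like, 0.42 to 0.54 in early and 0.67 to 0.84 in mature enterocyte-like cells, and Esrra, an ERR receptor, from 0.44 to 0.55, 1.04 to 1.36 and 1.42 to 1.74. Tfam, which packages and transcribes mitochondrial DNA, ranged from 0.82 to 1.17 in stem-like and from 0.175 to 0.231 in mature enterocyte-like cells (-2.36). Ppara, a receptor for fatty acids, stood at 1.94, Ppargc1b at 0.21 (1.30 in the early cells), Gabpa at -0.47, Nrf1 at -1.24 and Tfb2m, a factor for mitochondrial transcription, at -2.02.

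Between the libraries, the members differed less than between the classes. Over all cells their summed level was 667, 615 and 696, log2 ratios of -0.12 for B+A0 against AOS0, 0.18 for B+A10 against B+A0 and 0.062 for B+A10 against AOS0. These 3 comparisons share libraries and are not independent. The first did not hold within the classes, where the ratio of B+A0 to AOS0 was 0.048 in stem-like, 0.0016 in cycling-like, 0.036 in early enterocyte-like, 0.090 in mature enterocyte-like, 0.10 in goblet-like and 0.35 in Paneth-like cells, none of them below 0. Paneth-like cells, in which the members were lowest, held 6.86%, 16.8% and 8.84% of the UMIs of the libraries. With the share of each cluster in the UMIs held at that of AOS0, the levels over all cells were 667, 690 and 706, and the ratio of B+A0 to AOS0 turned to 0.049. It also turned to 0.049 on the scale without ribosomal, defensin and dominant genes, which shifted every gene by 0.17 in that comparison.

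By the 1.2-fold limit, none of 81 members was higher and 16, or 19.8%, were lower in B+A0 than in AOS0 over all cells, against 2.55% and 32.0% of all genes. In B+A10 against B+A0, 17 of 80 were higher (21.2%) and none lower, against 18.3% and 3.33%. In B+A10 against AOS0, 15 of 81 were higher (18.5%) and 15 lower (18.5%), against 9.69% and 25.0%. Within mature enterocyte-like cells, 5 of 78 members were higher and none lower in B+A0 against AOS0 (6.14% and 12.6% of all genes), 5 higher and none lower in B+A10 against B+A0 (17.0% and 6.67%), and 20 higher and 7 lower in B+A10 against AOS0 (17.5% and 15.6%). In the higher calls of the last comparison the members stood above all genes, with 25.6%, and in the others they were near or under them.

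The other classes gave few calls between B+A0 and AOS0, in which the higher and lower counts were 4 and 4 of 76 members in stem-like cells (7.09% and 14.6% of all genes), 2 and 5 of 79 in cycling-like cells (5.22% and 17.0%), 3 and 4 of 78 in early enterocyte-like cells (5.81% and 15.6%), and 4 and 0 of 77 in goblet-like cells (8.44% and 11.3%). In B+A10 against B+A0 they were 3 and 3 of 76 in stem-like (8.26% and 6.64%), 4 and 1 of 78 in cycling-like (6.45% and 8.27%), 6 and 1 of 77 in early enterocyte-like (8.87% and 7.27%), and 2 and 4 of 76 in goblet-like cells (7.76% and 11.7%). All of these shares of the members were below the background of all genes. Calls were more frequent in B+A10 against AOS0, with 15 and 20 of 76 in stem-like (12.6% and 26.3%), 14 and 17 of 79 in cycling-like (9.31% and 27.7%), 16 and 10 of 78 in early enterocyte-like (12.1% and 23.8%), and 12 and 9 of 77 in goblet-like cells (13.1% and 24.4%). There the higher calls took 19.7%, 17.7%, 20.5% and 15.6% of the members, above all genes in each of the 4 classes, and the lower calls took 26.3%, 21.5%, 12.8% and 11.7%, at or under them.

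On the scale of all UMIs, Paneth-like cells gave the largest difference between libraries of the 6 classes. The summed members were higher in B+A0 than in AOS0 by a log2 ratio of 0.35 (0.33 to 0.36), with 49 of 74 members at least 1.2-fold higher (66.2%, against 45.7% of all 889 genes) and 1 lower (1.35%, against 5.85%), and the median of all genes was also above 0, at 0.22. They were lower in B+A10 than in B+A0 (-0.14), with 31 of 74 at least 1.2-fold lower (41.9%, against 35.9%) and 3 higher (4.05%, against 4.77%). Against AOS0 they were higher in B+A10 (0.21), with 25 of 62 higher (40.3%, against 28.6%) and 5 lower (8.06%, against 18.8%). On the scale without ribosomal, defensin and dominant genes the 3 ratios were 0.13, -0.063 and 0.071, and those of goblet-like cells to AOS0 were larger, at 0.14 in B+A0 and 0.18 in B+A10. The early enterocyte markers in the same cells summed to 24.7, 37.0 and 29.9, in the same library order as the members, and the mature enterocyte markers to 24.4, 74.4 and 57.2. Their part in the result was not tested.

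**Figure D5:**
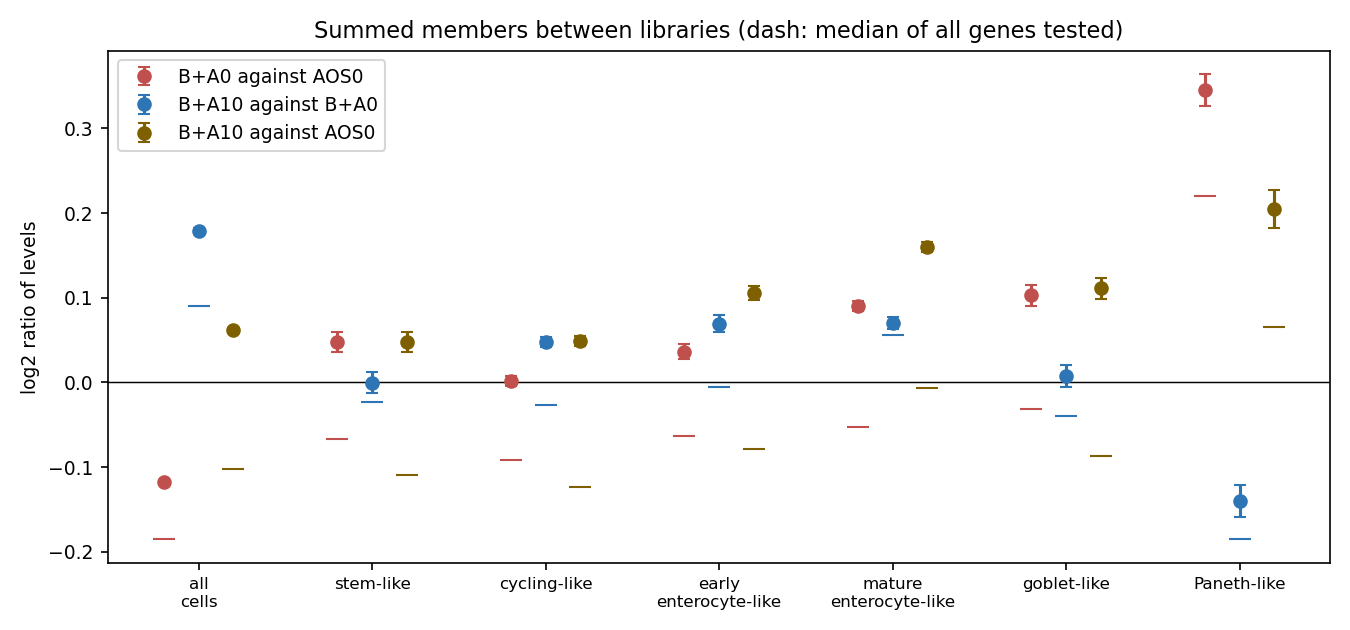
Log2 ratio of the summed level of the members between libraries (vertical axis) over all cells and in the 6 classes (horizontal axis), in 3 comparisons (colours); bars are exact 95% counting intervals and dashes the median of all genes tested in that comparison. B+A0 against AOS0 lies at -0.12 over all cells and between 0.0016 and 0.35 in the classes.

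Some members differed between libraries in the same direction in each class with enough UMIs. Atp5k (chr5:108433246-108434399) read 5.52, 6.39 and 10.6 over all cells, a log2 ratio of 0.94 for B+A10 against AOS0, and was higher in 6 of 6 classes (0.91 to 1.10). Cox7a1 read 2.1998, 2.54 and 3.88 over all cells (0.82) and was higher in B+A10 than in AOS0 in the 4 classes with enough UMIs (0.50 to 0.83). Ndufa3, an accessory subunit of complex I, read 3.58, 3.85 and 5.62 (0.65) and was higher in 6 of 6 classes (0.51 to 0.79). Uqcrq, at 18.2, 20.4 and 22.1, was higher in B+A0 than in AOS0 over all cells (0.16) and in 6 of 6 classes (0.25 to 0.68).

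Others were lower over all cells in both busulfan libraries than in AOS0. Uqcrb (chr13:66900576-66905350), the ubiquinone-binding subunit of complex III, read 10.8, 8.04 and 7.83, log2 ratios to AOS0 of -0.43 and -0.46. In the 6 classes the ratio ranged from -0.30 to -0.0061 in B+A0 and from -0.50 to -0.28 in B+A10. Sdhd (chr9:50596340-50603849), a membrane anchor of complex II, read 3.88, 2.69 and 2.93 and was lower in B+A0 than in AOS0 in 6 of 6 classes (-0.45 to -0.15). Atp5f1, subunit b of the stalk of complex V, read 6.66, 4.98 and 4.60 (-0.54 in B+A10 against AOS0, lower in 6 of 6 classes), and Uqcrc2 read 3.16, 2.55 and 2.35 (-0.43, lower in 5 of 5). Ndufs4, a subunit of the electron-entry arm of complex I, read 1.997, 1.85 and 1.76 and was lower in B+A10 than in B+A0 in 6 of 6 classes (-0.36 to -0.13). Atp5s, at 0.083, 0.057 and 0.065, had too few UMIs for a comparison within any class. With 1 library per group, these differences between libraries cannot be told apart from differences between preparations.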

How the data were processed

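Small intestine was dissociated with TrypLE, and libraries were made with the 10x Genomics Chromium Single Cell 3′ kit v2 (cells of 6 mice per library). Per the labels and the study's methods, the authors ran Cell Ranger 2.2.0 against mm10 with 5000 cells forced per library, kept cells with at least 200 genes and genes found in at least 3 cells, and deposited 1 table of natural log values, ln(1 + UMIs per 10000) per cell. Whole UMIs were recovered from these values (100% within 0.01 of a whole number). The table held 0 columns of no sample. It held 5352 cells of B+A10, more than the 5000 that the methods state were forced, and the source of this difference is not known. Groups came from the title, description and treatment of each sample. The source names disagree with them for 2 of the 3 libraries and were not used.

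The members and all gene lists were chosen with earlier results of these data known. Clusters were made with Seurat 5.3.0 in R 4.3.3 (2000 variable genes without the members, libraries joined, 20 dimensions, resolution 0.8). A cluster was given a class where at least 3 of its 10 leading genes were markers of it, more than for any other class. Its mean marker score also had to be highest in the same lineage. This naming rule was set after the clusters were seen, as was the leaving out of clusters in which over 50% of cells were called doublets by the highest 5% of Scrublet scores (scanpy 1.11.5), which held 3.85%, 3.13% and 3.70% of the cells of AOS0, B+A0 and B+A10. The automatic threshold had called 15 cells and was not used. In all, 3152 cells stayed outside the 6 classes.

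UMIs were summed per class and library. A gene entered a comparison with at least 300 UMIs over it, and was called at 1.5-fold between classes (in each of the 3 libraries) or 1.2-fold between libraries. Named members were the 2 of each complex with the highest mean level, the 4 with the highest and the 4 with the lowest mean log2 ratio per class comparison, the 3 highest and 3 lowest per library comparison over all cells, and the genes of isoform groups. From each pathway list (assembly, citric acid cycle, glycolysis, regulators, exchange, redox) the 2 highest and 2 lowest of mature enterocyte-like against stem-like cells were named, with Ppargc1a, Ppargc1b, Esrra, Nrf1, Gabpa, Tfam and Atpif1. Ndufs8, Sdha, Ndufa6 and Ndufa11 were named after their values were seen. Of the genes of isoform groups, Cox6b1, Cox7b, Cox8a and Ndufa4 were not described singly. The 1.5-fold call and the counting interval were tested on simulated UMIs of mature enterocyte-like against stem-like cells. These were Poisson draws with counting error only, and clustering, naming and the comparisons between libraries were not tested in this way. Promoter windows of RefSeq were on GRCm38.p6, the same build as mm10, and matched 69 of 84 members by symbol. Ndufs1, Sdhc, Uqcrc2, Cox6a2, Cox4i1, Ndufa4l2, Uqcrq, Uqcrb, Cox6c, Ndufb9, Cyc1, Ndufa2, Atp5a1 and Cox4i2 were among those with no window. The values of 1 member, counted in the sums, are not reported here. Reads shared with processed pseudogenes, which several members have, were not tested. The alternatives were other clusterings, doublets left out with and without new clustering, another total, means over cells, other UMI minima and each library left out.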

Additional observations from a re-analysis of the deposited data

Results flagged for a closer look

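In B+A10 against B+A0 the summed members lay on opposite sides of 0 in different classes. The log2 ratio was 0.048 in cycling-like, 0.070 in early enterocyte-like and 0.070 in mature enterocyte-like cells, and -0.14 in Paneth-like cells. Each class had 1 library per group, and the difference between the classes was not tested. The value of the Paneth-like cells turned to 0.088 when every cell was given the same weight.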

How the results depend on the processing

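No paired analysis was possible because each group had 1 library. Of 306 alternatives for sums and counts, 242 stayed, 62 moved and 2 reversed. Of 1065 for single values, 730 stayed, 329 moved and 6 reversed. A value stayed if it lay within the spread between libraries, or within 1.5 times for counts. Ratios between libraries have no such spread, and for them the reach of the 95% counting interval to either side was used, which covers counting error only. The cause of each change was not tested unless the alternative's construction gives it. Counts of members under an alternative are given without the share of all genes under it.

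With the libraries not joined for clustering, the summed log2 ratio to stem-like cells was 0.29 in cycling-like (1 member higher, 0 lower), 0.44 in early enterocyte-like (11 higher), 0.25 in mature enterocyte-like and -1.09 in goblet-like cells (0 higher). A clustering resolution of 0.4 gave no cycling or early class, so no values for them, and -0.98 in goblet-like cells. At 1.5 it was 0.23 in cycling-like (1 member higher, 0 lower) and -1.05 in goblet-like cells, and 1 class was lower in B+A0 than in AOS0. With mitochondrial and pathway genes also left out of the clustering it was -1.05 in goblet-like cells and -0.22 from early to mature enterocyte-like cells, with 1 member higher and 0 lower in cycling-like cells.

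With called doublets left out and the other cells clustered and named again, so that the mature class held 1888 instead of 2944 cells, 1 member was higher and 0 lower in cycling-like cells, the log2 ratio was 0.46 in early and 0.16 in mature enterocyte-like cells (6 members higher, 4 lower) and -0.31 between them (16 lower), and over all cells -0.12 for B+A0 and 0.057 for B+A10 against AOS0.

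Without ribosomal, defensin and dominant genes in the total, the ratios were 0.13 in cycling-like, 0.41 in early and 0.23 in mature enterocyte-like, -0.59 in goblet-like (39 members lower) and -0.40 in Paneth-like cells (8 lower, 1 higher). In Paneth-like cells Ndufa1 (0.55), Ndufv3 (0.20), Atp5e (0.15) and cytochrome c (0.0087) reversed. Over all cells B+A0 against AOS0 reversed to 0.049 (4 members higher, 2 lower), B+A10 against B+A0 was 0.072 (6 higher) with 5 classes higher, and B+A10 against AOS0 was 0.12 (8 lower).

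As a mean over cells, Paneth-like against stem-like cells was -1.88, and B+A10 against B+A0 in Paneth-like cells reversed to 0.088, with 0 classes lower. Over all cells B+A0 against AOS0 was -0.016 (2 members higher, 6 lower), B+A10 against B+A0 0.11 (9 higher) and B+A10 against AOS0 0.096.

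A minimum of 1000 UMIs left 0 members lower in cycling-like and 0 higher in goblet-like cells, and no minimum gave 1 lower in early enterocyte-like cells. Leaving out each library in turn gave 0 to 1 members higher in cycling-like cells.

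Further alternatives were chosen after seeing the data. With called doublets left out of the classes as first named, 1 member was higher in cycling-like cells, mature enterocyte-like cells stayed at 0.32, and the ratios over all cells were again -0.12 and 0.057. With doublet-rich clusters kept, goblet-like against stem-like cells was -0.85, and B+A0 against AOS0 in goblet-like cells reversed to -0.064, so that 1 class was lower. With cluster shares of UMIs held at those of AOS0, the ratios over all cells were 0.049 for B+A0 against AOS0, reversed, 0.034 for B+A10 against B+A0 and 0.083 for B+A10 against AOS0. With the clusters of cycling-, mature enterocyte- and goblet-like cells weighted equally, every ratio between libraries in these classes kept its direction. In size, 7 of these ratios moved and 2 stayed.

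The median of 3505 UMIs per cell in B+A10 and the 300 UMIs asked of a gene limit the values of low members, and 5 members could not be compared in most classes.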
